A study of Caenorhabditis elegans with 6 samples.

Results

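Splicing factor genes encode the proteins of the spliceosome, the machine that removes introns from pre-mRNA, and the proteins that guide it to splice sites. They were taken here as the WBcel235 protein-coding genes whose symbol begins with rsp, prp, snr, uaf, sftb, sfa, snrp or rnp followed by a hyphen. The rule found 48 genes among 19971 protein-coding genes on the nuclear chromosomes. Membership rests on the symbol alone, and whether each gene acts in splicing was not checked. A gene was counted as having a peak when a peak summit lay within 1000 bp of either of its ends, since the annotation used gives start and end but no strand.

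Open chromatin was measured in sorted nuclei by ATAC-seq, where Tn5 transposase inserts adapters into accessible DNA. The worms were Caenorhabditis elegans of strain OH11061. All samples carried otIs381, a reporter that labels the nuclei of neurons with GFP, and came from mixed-stage worms, mostly larvae. Neuronal nuclei were sorted as GFP and DAPI positive (3 samples) and total nuclei as DAPI positive (3 samples), with 50000 nuclei in each, so total nuclei include neurons. The values used are 1 deposited peak list per group on build ce11, the same sequence as WBcel235, with 2313 peaks for neuronal and 2683 for total nuclei. They are called the neuronal and the total list after their labels.

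No value per sample was analysed here, so nothing below carries a spread between samples, no test was run, and every difference describes 2 lists. Chromatin without a listed peak need not be closed. Of 10 neuronal marker genes, 1 had a peak in the neuronal list (ric-19) and 3 in the total list, against 2 and 4 of 5 body-wall muscle markers. For germline and for intestine it was 1 of 4 markers in each list, for hypodermis 0 and 1 of 4, and for pharynx 0 of 3 in both. These markers therefore did not set the neuronal list apart. The ric-19 peak had the highest fold over local background of each list, 51.5 and 51.9, and the reason was not tested.

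The spliceosome is built from small nuclear RNAs and proteins. Sm proteins form a ring on the U1, U2, U4 and U5 RNAs, the U1 particle binds the 5′ splice site, and the branch point and 3′ splice site are read by SF1 and U2AF before the U2 particle binds. The U4/U6.U5 tri-snRNP then joins, and SR proteins help to select exons. In C. elegans the same machinery also carries out trans-splicing, which puts a spliced leader on many mRNAs, and many genes lie in operons read from 1 promoter.

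Splicing factor genes had a nearby peak more often than other genes did. In the neuronal list 15 of 48 had one (31.2%, 95% exact binomial interval 18.7% to 46.3%), against 11.3% of all other protein-coding genes (2253 of 19923). With the total list it was 17 of 48 (35.4%, 22.2% to 50.5%), against 13.5% (2693 of 19923). These intervals cover counting error only, and genes are not replicates. Among other genes with a gene-class symbol, which the rule requires of its members, the shares were 13.4% and 16.1% of 11218. Fewer nuclei with an open site and less opening per nucleus cannot be told apart in such data.

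The excess was smaller among the stronger peaks. With the stronger 50% of each list by the authors' p-value, 4 of 48 splicing factor genes (8.33%) had a peak in either list, against 6.18% of other genes, which is close to the background. When each peak counted only for the single gene whose end was nearest, 9 of 48 (18.8%) had one against 9.07%. Without the rnp genes, 14 of 39 splicing factor genes (35.9%) had a peak in the neuronal list and 16 of 39 (41.0%) in the total list.

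**Figure D1:**
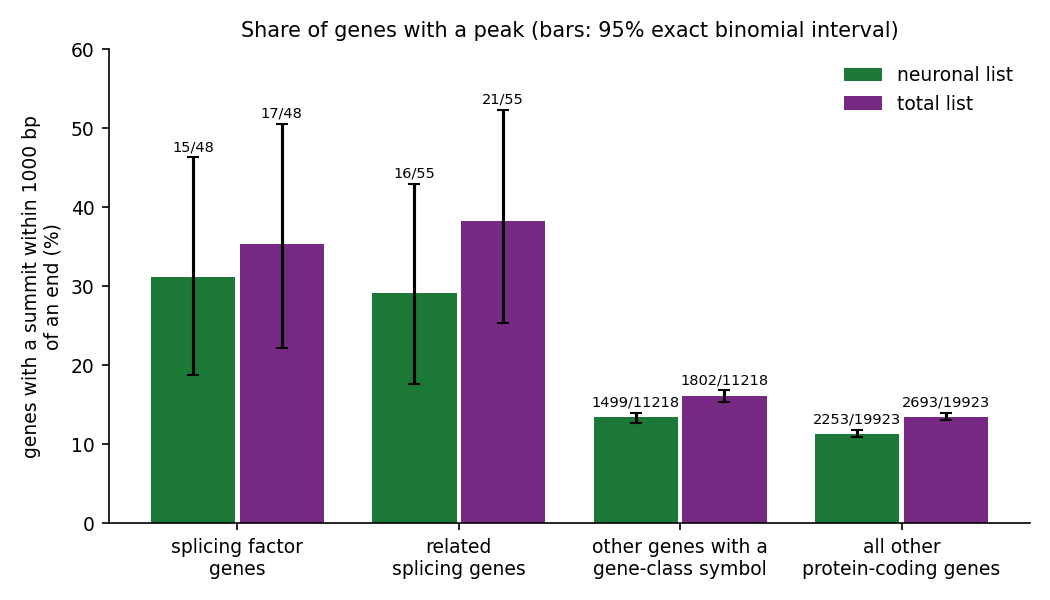
Percentage of genes with a peak summit within 1000 bp of an end, for 4 gene groups in the neuronal list (green) and the total list (purple), with 95% exact binomial intervals and counts above the bars. Splicing factor genes reached 31.2% and 35.4%, against 11.3% and 13.5% of all other genes.

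The 2 lists held almost the same splicing factor genes. All 15 genes with a peak in the neuronal list also had one in the total list (31.2% in both, against 10.8% of other genes). The list labelled total added sftb-1 and snr-7, or 4.17% of the 48 against 2.72% of other genes. No splicing factor gene had a peak in the neuronal list alone (0 of 48, exact upper limit 7.40%), where the background was 0.512%. Because rsp-1 and rsp-2 share a peak, the 15 and 17 genes rest on 14 and 16 peaks. All 14 neuronal peaks overlapped a total peak, against 95.9% of the other peaks near gene ends, and 14 of the 16 total peaks overlapped a neuronal one, against 80.9%.

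SR proteins bind exons through RNA recognition motifs and carry arginine and serine rich domains, and 4 of their 8 rsp genes had a peak in both lists. This share of 50% has an exact interval from 15.7% to 84.3%, set against 11.3% and 13.5% of all other genes. Other genes with a gene-class symbol had shares of 13.4% and 16.1%, the second of which lies inside the interval. The interval counts rsp-1 and rsp-2 separately although they share a peak, so no difference from other genes is read from it. The families are small, and no difference between them was tested. The neighbouring genes rsp-1 (CELE_W02B12.3, chromosome II from 11453362 to 11455864) and rsp-2 (CELE_W02B12.2, 11451441 to 11452955) lie 406 bases apart, with 1 peak between them. Its summit was 223 bp from rsp-1 and 184 bp from rsp-2 in the neuronal list, and 212 bp and 195 bp away in the total list. The fold enrichment of this peak, the authors' ratio of reads over the summit to local background, was 9.06 in the neuronal list and 9.35 in the total list. It was among the wider peaks, at 1893 bp and 1628 bp.

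The summit closest to rsp-6 (CELE_C33H5.12, chromosome IV from 7789847 to 7791229), whose product is the counterpart of mammalian SRSF3, lay 137 bp outside it in the neuronal list and 141 bp outside in the total list. Its fold was 8.29 and 8.52, in that order. The rsp-6 peak was wider in the total list, at 1742 bp against 1084 bp. The rsp-5 gene (CELE_T28D9.2, chromosome II from 6490165 to 6491340) had the farthest summit of all 17 genes, at 580 bp and 668 bp, and its peak was narrow (597 bp and 599 bp) with folds of 7.29 and 8.31. That summit lay nearer to T28D9.11, 73 bp and 15 bp away. It was also the closest summit to the Sm gene snr-3, which lies 403 bases from rsp-5 and 2159 bp and 2247 bp from the summit, outside the window.

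The other 4 SR genes had no peak within 1000 bp in either list. The closest summit was 3031 bp from rsp-8, the counterpart of the splicing regulator Tra2, and 7610 bp from rsp-4, the counterpart of SC35. It was 21195 bp from rsp-3, the counterpart of SF2/ASF, and 80048 bp from rsp-7, the largest distance of the 48 genes. Within a single protein family the genes thus ranged from a summit 137 bp away to one 80048 bp away.

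**Figure D2:**
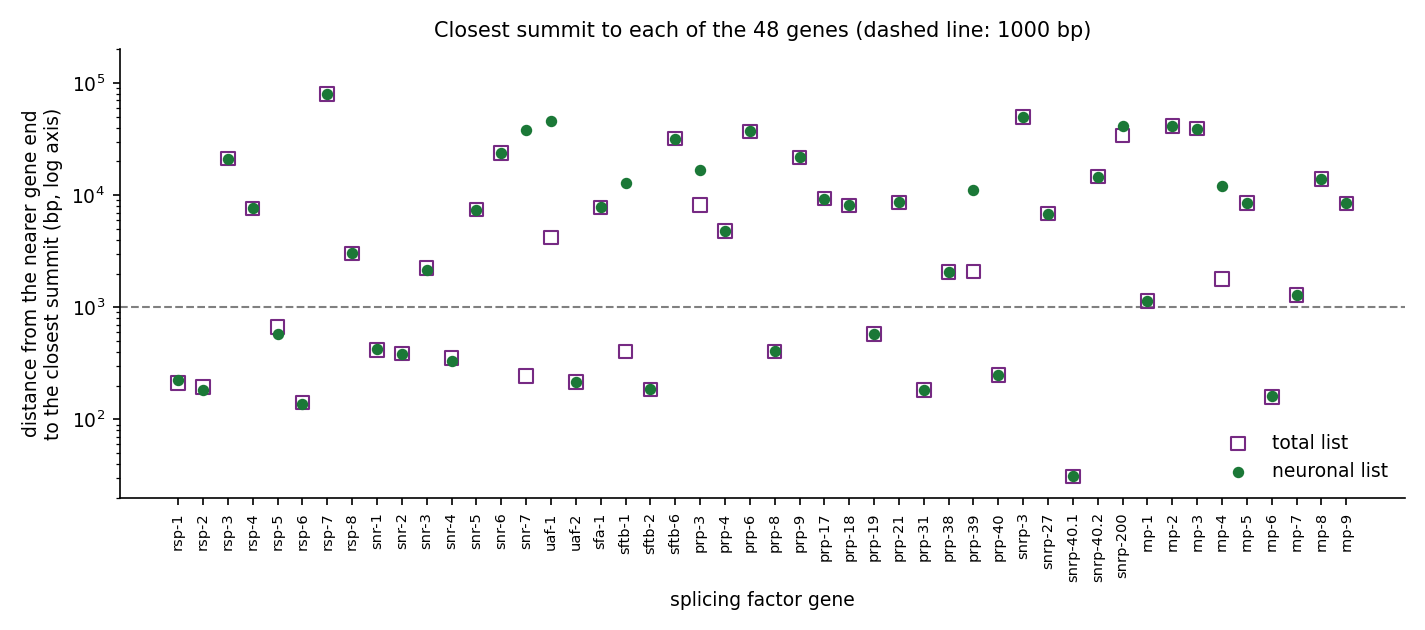
Distance in bp on a log axis from the nearer end of each of the 48 splicing factor genes to the closest summit, in the neuronal list (filled circles) and the total list (open squares), with the 1000 bp window as a dashed line. The genes below the line lie between 31 bp and 668 bp, and for sftb-1 and snr-7 only the square is below it.

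Of the 7 Sm genes, 3 had a peak in the neuronal list (42.9%, exact interval 9.90% to 81.6%) and 4 in the total list (57.1%, 18.4% to 90.1%). The first interval includes the 11.3% of all other genes. The second lies above their 13.5% through 1 gene, snr-7, whose peak ranked 2633 of 2683 by p-value. With 7 genes, no difference from other genes is read from these intervals. The snr-4 peak, at the gene for SmD2 (CELE_C52E4.3, chromosome V from 11978508 to 11979723), was the strongest of the family, with a fold of 12.7 in the neuronal list and 12.5 in the total list. By the authors' p-value it ranked 227 of 2313 and 290 of 2683, the highest rank of any splicing factor peak. Its summit was 333 bp and 354 bp outside snr-4, but only 62 bp and 41 bp from an end of C52E4.8, which is annotated as an snRNA gene. The share of that snRNA gene in the signal was not tested.

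The snr-1 peak, at the gene for SmD3 (CELE_Y116A8C.42, chromosome IV from 17088049 to 17088946), was the widest splicing factor peak of the neuronal list, at 2728 bp, and was 1399 bp wide in the total list. Its folds were 7.75 and 8.84, and its summit lay nearer to snx-13 (186 bp and 194 bp) than to snr-1 (425 bp and 417 bp). The peak of snr-2, the SmB gene (CELE_W08E3.1, chromosome I from 13339397 to 13340224), was weak in both lists, with folds of 6.06 and 6.28 and a summit 386 bp away. It had the lowest fold of the splicing factor peaks in the neuronal list.

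The SmG gene snr-7 (CELE_Y71F9B.4, chromosome I from 2727014 to 2727382) had a peak in the total list alone, with a summit 243 bp outside the gene and 47 bp from Y71F9B.6. Its fold of 5.38 was the lowest of the 16 splicing factor peaks there, and it ranked 2633 of 2683 by the authors' p-value. When the total list was reduced to its strongest 2313 peaks, the number in the neuronal list, the snr-7 peak dropped out. The closest neuronal summit was 38103 bp away. No summit lay within 1000 bp of snr-3 (SmD1), snr-5 (SmF) or snr-6 (SmE), with the closest at 2159 bp, 7442 bp and 23762 bp.

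Among the 6 genes for recognition of the branch point and 3′ splice site, 2 had a peak in the neuronal list (33.3%, exact interval 4.33% to 77.7%) and 3 in the total list (50%, 11.8% to 88.2%). Both intervals include the shares of all other genes, 11.3% and 13.5%. At uaf-2, which encodes the small U2AF subunit that reads the AG of the 3′ splice site (CELE_Y116A8C.35, chromosome IV from 17116771 to 17118552), the summit was 215 bp outside the gene in both lists. The uaf-2 peak was wide, at 2048 bp and 2052 bp, with folds of 7.01 and 7.50. Its partner uaf-1, the gene for the large U2AF subunit that binds the polypyrimidine tract, had its closest summit 45868 bp away in the neuronal list and 4172 bp away in the total list. The genes snr-1, sfa-1 and uaf-2 lie along 1 stretch of chromosome IV, with 14878 bases and 5788 bases between them. Of these, sfa-1, the gene for the branch point protein SF1, had no summit closer than 7785 bp.

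SF3B1, the U2 particle protein that clamps the branch point, is encoded by sftb-1 (CELE_T08A11.2, chromosome III from 4263783 to 4269270), the other gene with a peak in the total list alone. That peak was 1243 bp wide with a fold of 8.59, and its summit lay 404 bp outside the gene. It had 821 reads over the summit (recovered from the authors' fold and p-value), the fewest of the 16 peaks, and ranked 2312 of 2683 by p-value. The closest neuronal summit was 12918 bp away. For sftb-2, the SF3B2 gene (CELE_W03F9.10, chromosome V from 128237 to 131671), the summit was 185 bp away in both lists, with folds of 6.15 and 6.98, and it was 18 bp from W03F9.2. Another subunit gene, sftb-6, had no summit within 31893 bp.

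The prp genes, named after yeast pre-mRNA processing mutants, had peaks at 4 of 13 in both lists (30.8%, exact interval 9.09% to 61.4%). That interval includes the 11.3% and 13.5% of all other genes. At prp-8, which encodes the U5 protein at the catalytic core (CELE_C50C3.6, chromosome III from 8164373 to 8172710), the fold was 10.6 in the neuronal list (95% counting interval 10.1 to 11.0) and 12.1 in the total list (11.5 to 12.7). These intervals come from the reads over the summit alone and do not overlap, as was also the case at rsp-5, sftb-2 and snr-1. The 4 of 14 shared splicing factor peaks (28.6%) match the 28.6% of other paired peaks. The ratio of 1.15 was the largest of the 14 shared splicing factor peaks, and other shared peaks had a median ratio of 1.06. The summit was at the same base in both lists, 404 bp outside prp-8 and 586 bp from bath-42.

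At prp-19 the order was the other way round. This gene (CELE_T10F2.4, chromosome III from 5169933 to 5172045) encodes the ubiquitin ligase of the Prp19 complex, which acts during activation of the spliceosome. Its peak had a fold of 9.46 (counting interval 9.02 to 9.91) in the neuronal list and 9.10 (8.56 to 9.67) in the total list, and these intervals overlap. It was 1345 bp wide in the neuronal list and 2315 bp wide, the widest splicing factor peak, in the total list. The summit was 576 bp from prp-19 and 99 bp from K10D2.5.

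The remaining prp peaks lay at prp-40, for a U1 particle protein (CELE_ZK1098.1, chromosome III from 9522075 to 9525449), and prp-31, for a tri-snRNP protein (CELE_Y110A7A.8, chromosome I from 5127828 to 5129611). The prp-40 summit was 249 bp outside the gene, with folds of 9.57 and 10.5. The prp-31 summit was 183 bp outside, with folds of 7.76 and 8.24. In both cases summit and distance were the same in the 2 lists, and no other gene end was nearer.

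No peak was found within 1000 bp of the other 9 prp genes. The closest was 2068 bp from prp-38, with a high fold of 14.9 in the neuronal list, but only 190 bp from plrg-1, which encodes a partner of Prp19 and is not among the 48. At prp-39 a summit lay 2082 bp away in the total list and 11069 bp away in the neuronal list. For prp-3 the distances were 8135 bp in the total list and 16741 bp in the neuronal list. The others were prp-4 (closest at 4782 bp), prp-18 (8122 bp), prp-21 (8630 bp), prp-17 (9289 bp), prp-9 (21751 bp) and prp-6 (36983 bp).

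The snrp and rnp genes had the fewest peaks, 1 of 5 and 1 of 9 in each list. The shares, 20.0% and 11.1%, have exact intervals from 0.505% to 71.6% and from 0.281% to 48.2%, which include the shares of all other genes too. At snrp-40.1, a gene for the U5 40K protein (CELE_F08G12.2, chromosome X from 11298036 to 11299784), the summit was 31 bp inside the gene, the closest of all. It was the only 1 inside its own splicing factor gene, and position within other genes was not examined. Its fold was also the highest of the splicing factor peaks, at 14.6 in the neuronal list and 15.8 in the total list. No splicing factor peak was in the highest 10% of its list by fold, where 9.74% and 9.60% of other peaks near gene ends lay, too small a share to read anything from 0 of 14 and 0 of 16. The paralog snrp-40.2 had no summit within 14621 bp.

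At rnp-6, the counterpart of the U2AF-related factor PUF60 (CELE_Y47G6A.20, chromosome I from 3539553 to 3546910), the fold was 11.4 and 11.7. The summit was 163 bp and 158 bp from rnp-6, but 2 bp and 3 bp from an end of rde-10, a gene of the RNA interference pathway. Just outside the window, rnp-1 had a summit at 1142 bp and 1141 bp, with folds of 11.6 and 12.1, and rnp-7, which encodes the U1 70K protein, had one at 1284 bp in both lists. At rnp-4, the exon junction protein Y14, a summit was 1786 bp away in the total list and 12173 bp away in the neuronal list.

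The neighbours rnp-2 and rnp-3, which encode RNA-binding proteins of the U1 and U2 particles, lie 72 bases apart with no summit within 39253 bp. No summit lay within 1000 bp of rnp-5, rnp-8 or rnp-9 either, nor of snrp-3, snrp-27 or snrp-200, the gene for the helicase Brr2. Over the 31 splicing factor genes without a peak in either list, the closest summit was 1141 bp to 80048 bp away, with a median of 8434 bp, and for 22 of them it was more than 5000 bp away. No splicing factor gene had its closest summit between 668 bp and 1141 bp in either list. Such distances were not computed for other genes without a peak, so none of these values is read as particular to splicing factor genes.

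The summits lay somewhat closer to splicing factor genes than to other genes with a peak, which was not tested. The median distance was 223 bp over 15 pairs of a gene and a peak in the neuronal list, against 325 bp over 2322 pairs of other genes. Over the total list it was 243 bp over 17 pairs, against 311 bp over 2799. Within 500 bp lay 86.7% and 88.2% of the splicing factor pairs, against 68.2% and 69.8% of the others. The summit was outside the gene in 14 of 15 pairs (93.3%, against 88.7%) and in 16 of 17 (94.1%, against 89.1%). The splicing factor gene had the nearest protein-coding end in 8 of 15 pairs (53.3%, against 64.5%) and 9 of 17 (52.9%, against 63.2%). For the rest, which include rsp-1 beside rsp-2, another gene was nearer, and which gene a peak belongs to was not tested.

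The peaks were wider and of lower fold than most. In the neuronal list the 14 peaks had a median fold of 8.67 (range 6.06 to 14.6), against 10.4 for 1488 other peaks within 1000 bp of a gene end, and 10 of 14 were below the list's median, against 51.8% of those others. In the total list the median of 16 peaks was 8.72 (5.38 to 15.8) against 10.5 for 1760 others, and 12 of 16 were below the list's median, against 51.6%. The median width was 1041 bp against 857 bp in the neuronal list, where 12 of 14 peaks were wider than the list's median of 799 bp, against 56.9% of the other peaks. It was 1072 bp against 894 bp in the total list, with 12 of 16 above 823 bp, against 59.3%. Across all peaks, width and fold had Spearman correlations of -0.000957 and 0.0363 in the 2 lists.

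**Figure D3:**
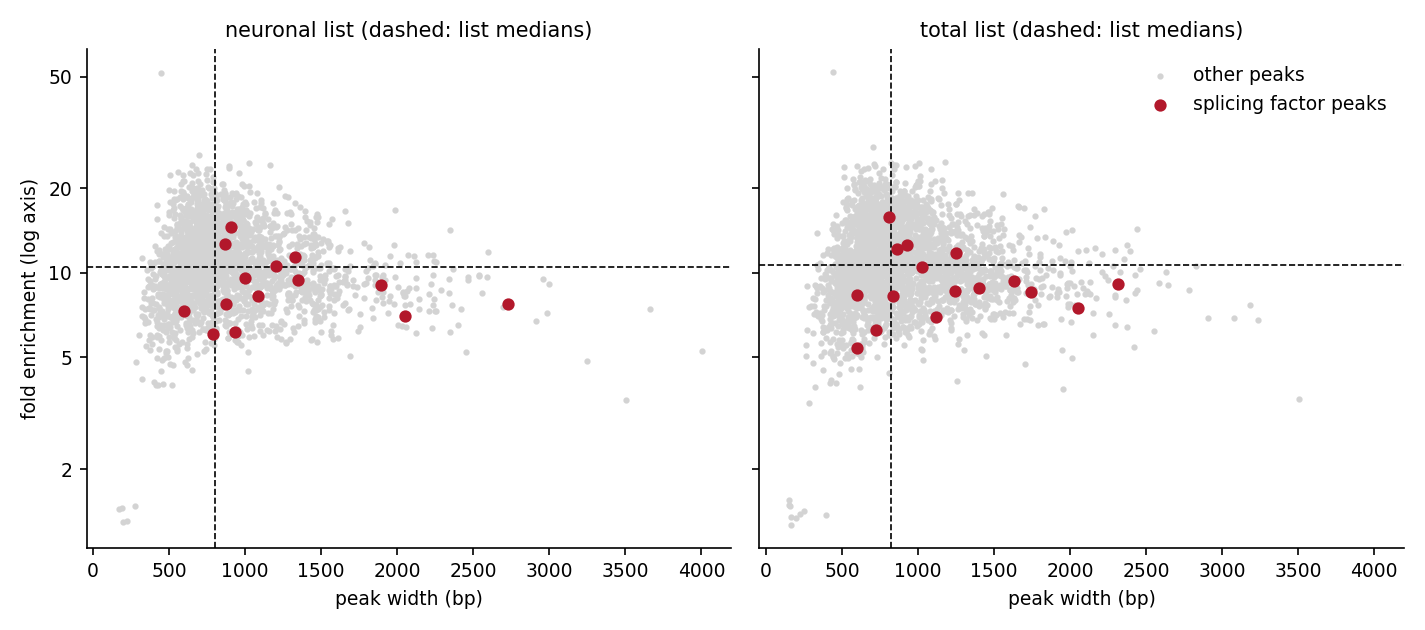
Peak width in bp against the authors' fold enrichment (log axis) for every peak of the neuronal list (left) and the total list (right), with splicing factor peaks in red and list medians as dashed lines. Most red points lie to the right of the median width and below the median fold, 10 of 14 below it on the left and 12 of 16 on the right.

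By the authors' p-value, 4 of 14 and 4 of 16 splicing factor peaks were above their list's median, against 46.6% of the other peaks near gene ends in both lists. The median number of reads over the summit was 1793 for splicing factor peaks and 1842 for the other peaks near gene ends in the neuronal list. For the total list these medians were 1197 and 1155. The local background had medians of 225 against 178 reads and 145 against 109. The part of read number and background in the folds was not tested. The deposited score, a scaled value of reproducibility, was at its maximum of 1000 for 14 of 14 neuronal peaks and 14 of 16 total peaks, the exceptions being snr-2 (945) and snr-7 (444). These shares are close to the 89.3% and 89.8% of the other peaks.

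Small RNA genes touch this comparison. Of 612 tRNA genes on the nuclear chromosomes, 75.8% had a summit within 1000 bp of an end in the neuronal list and 76.3% in the total list, as had 41.9% and 39.5% of 129 snRNA genes. Among the other peaks near ends of protein-coding genes, 14.5% and 12.6% had a tRNA or snRNA gene within 1000 bp, with median folds of 12.3 and 12.4. Only snr-4 of the splicing factor peaks had one. Without such peaks the splicing factor medians were 8.29 against 10.1 in the neuronal list and 8.59 against 10.2 in the total list, and 33.3% of splicing factor genes and 12.5% of other genes had a peak in either list. Reads from near-identical copies of these small genes may be placed at the wrong copy.

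Between the lists, fold at splicing factor peaks differed much as it did at other paired peaks. It was higher in the total list at 12 of 14 shared peaks, all but prp-19 and snr-4, against 83.6% of 2197 other paired peaks. The median ratio of total to neuronal fold was 1.07 (range 0.962 to 1.15), against 1.06 for the other pairs, of which 95% lay between 0.944 and 1.21. Ranked among all paired peaks, 7 of the 14 stood higher in the neuronal list, as did 1102 of the 2197 other pairs. The largest moves were at prp-19, 11.6 percentile points higher in the neuronal list, and at prp-8, where the neuronal minus total difference was -10.1 points. Among the other pairs this difference ran from -41.2 to 32.7 points. The summit was at the same base in 8 of 14 pairs (57.1%, against 52.3%) and within 10 bp in 11 of 14 (78.6%, against 87.3%). The largest shift was 88 bp, at rsp-5, and up to 2157 bp among the other pairs.

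**Figure D4:**
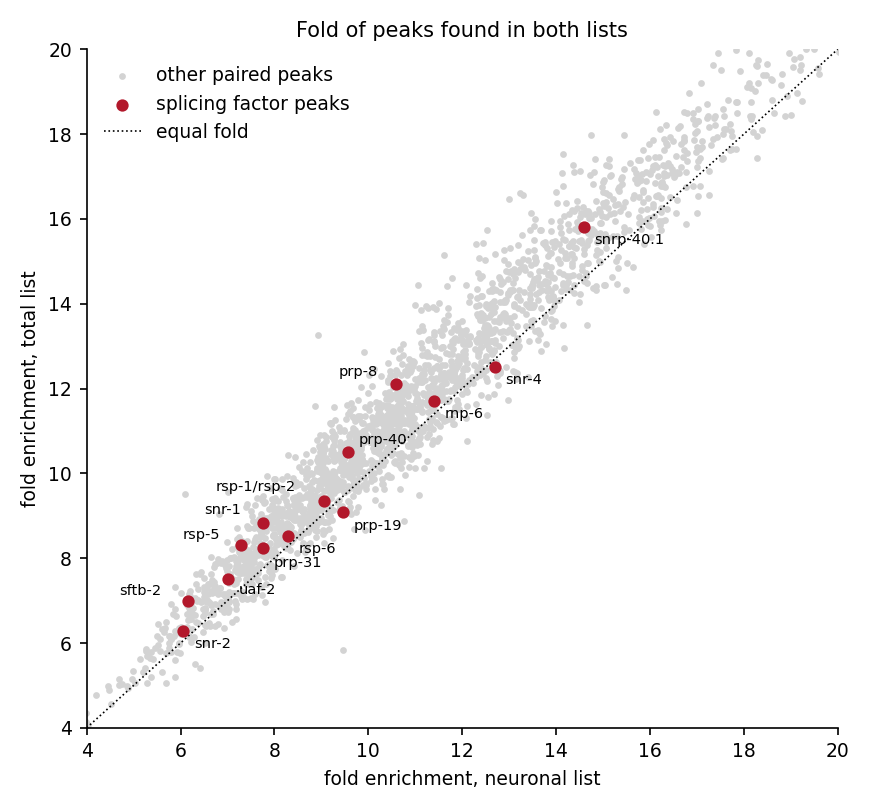
Fold enrichment in the neuronal list against the total list for peaks found in both, with the 14 splicing factor peaks named in red, other pairs in grey and equal fold as a dotted line; 71 other pairs lie outside the axes. Of the red points, 12 lie above the line, as do 83.6% of the grey ones.

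Splicing genes outside the symbol rule showed shares of similar size. Of 56 related genes listed by name, 55 matched the annotation. This list too was chosen with earlier results of these data known, so its shares are a description and no independent check. In the neuronal list 16 had a peak (29.1%, exact interval 17.6% to 42.9%), against 11.3% of all genes outside the 48. In the total list it was 21 (38.2%, 25.4% to 52.3%), against 13.5%. All 16 were among the 21, and the 5 added were smu-1, mog-1, mog-5, cacn-1 and sna-2, with folds from 7.61 to 9.62, counting 1 peak per gene. Of these, cacn-1 had 2 peaks. All total-list peaks of the 21 genes together had folds from 1.38 to 15.8. None of the 18 and 25 peaks of the related genes was a peak of the 48 genes. Below the list's median fold were 15 of 18 and 21 of 25, against 51.8% and 51.6% of peaks near gene ends outside the 48. Above its median width were 16 of 18 and 21 of 25, against 56.9% and 59.3%.

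Groups of the related genes were formed after their values were seen, so their counts are a description, beside 11.3% and 13.5% of all other genes in the neuronal and total list. The DEAH helicase genes mog-1, mog-4, mog-5 and ddx-15, whose products remodel the spliceosome, had a peak in the total list in 4 of 4 cases and in the neuronal list in 2 (mog-4, fold 9.88, and ddx-15, 7.99). The hnRNP genes hrpa-1, hrpf-1 and hrpk-1 had one in both lists, with neuronal folds of 9.43, 7.24 and 10.4. This group took matched hrp symbols only. The listed hrp-2 did not match the annotation, and sym-2 and ptb-1, outside the group, had no peak in either list. The highest fold was at teg-1, with 14.1 in the neuronal list and 15.8 in the total list. Of 7 Lsm genes, whose products form rings like those of Sm proteins, only lsm-1 had a peak (11.9 and 13.6).

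A further group formed in the same way held regulators of tissue-dependent alternative splicing. These were unc-75 and exc-7, which act in neurons, the muscle regulator sup-12, and asd-1, fox-1, mbl-1, etr-1 and mec-8. In both lists 0 of these 8 genes had a summit within 1000 bp, which allows a share of up to 36.9%. Neither the 11.3% and 13.5% of all other genes nor the share of the core factors can be told apart from this count.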

How the data were processed

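Per the submitters' processing notes, the ATAC-seq reads passed through Bowtie2 2.2.6, cutadapt 1.9.1, MACS2, Picard, SAMtools 1.7 and bedtools 2.26 (listed here without order or role) on build ce11. Not given in the sources used here are the Tn5 shift, duplicate handling, depth per sample and how samples were combined. For each group the authors deposited a single narrowPeak list, whose name holds an IDR (irreproducible discovery rate) threshold of 0.1. Each deposited peak has a score, a fold ratio over local background, a −log10 p-value and a summit offset. The score is a scaled rate of reproducibility. Whether it compares the samples of a group or other divisions of the reads is not stated in the sources used here.

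Distances, overlaps (at least 1 bp) and exact binomial intervals came from pandas 2.3.3, scipy 1.17.1 and numpy 2.4.6 under Python 3.11.15, with matplotlib 3.10.9 for plots. Symbols and positions came from a RefSeq table of WBcel235, without its 12 mitochondrial protein-coding genes. Paired peaks are each other's best overlap. Reads over each summit were solved from fold and p-value with default MACS2 formulas, and 99.8% of the neuronal and 99.9% of the total values were whole numbers to within 0.02. Counting intervals (95%, Poisson) treat the local background as fixed and reads as independent. Recovery and assignment were tested on simulated data.

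Members and lists were chosen with earlier results of these data known. The rule for named genes takes every member with a peak in 1 list, those of highest fold or greatest width, those near the window's edge, and all members without a peak. Alternatives covered the window, the assignment, peak strength, the number of peaks, the overlap and the members. Nothing in the labels says whether samples came from separate cultures. Sequences were not analysed here.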

Additional observations from a re-analysis of the deposited data

How the results depend on the processing

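Of 71 values recomputed under alternatives, 52 stayed within the 95% interval of the reported share or median, or within 1.5 times a reported count, and 19 moved. The intervals of the member shares are wide (18.7% to 46.3% in the neuronal list), so staying within them says little about stability. Nearest-end assignment gave 16.7% of members for the neuronal list and 18.8% for the total list and for either list, and 9.07% of other genes. With it 8 of 8 neuronal and 8 of 9 total peaks were shared, in place of 14 of 14 and 14 of 16. The count of shared peaks thus fell along with the number of peaks assigned. The stronger 50% of each list gave 8.33% of members in each list and in either, 6.18% of other genes, and median folds of 11.6 and 12.3 over 4 peaks each. For other genes, whose interval is narrow, the share in either list moved from 14.0% to 10.0% with 500 bp, 19.9% with 2000 bp, 17.4% with any base of the peak, 12.5% with equal numbers of peaks, 15.6% with summits inside genes, 16.6% with gene-class symbols alone and 12.5% without peaks at tRNA or snRNA genes. The last 3 settings were chosen after seeing the data. With 500 bp and 2000 bp, 31.2% and 41.7% of members had a peak in either list. Alternatives that use the 5′ end alone were not run, as strand is not in the annotation used. No paired analysis was possible because the lists hold no value per replicate, and no sample could be left out in turn. The cause of a move was not tested.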
